A study of Homo sapiens and Mus musculus with 10 samples.

Results

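Osteopontin (Spp1), the tissue inhibitor of metalloproteinases Timp1 and the matrix metalloproteinases Mmp2, Mmp3, Mmp9, Mmp13 and Mmp14 are 7 of the 78298 gene rows of the mouse table. They were chosen by name and identifier with earlier results of the same comparison known, so that their levels are given as a description, with no test. Osteopontin is a secreted phosphoprotein that cells bind through integrins and CD44, and it is made in inflamed tissue and tumours, among others by macrophages. Matrix metalloproteinases are zinc proteases that are made as inactive precursors and cleave collagens, basement membrane and other matrix proteins, and TIMP proteins bind their active site and block them. In skin these genes are known for their part in wound repair, inflammation and tumour invasion.

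The mouse libraries came from tumour-bearing dorsal skin, 1 piece per mouse, and form the columns named cKO (n = 2) and WT (n = 2). All mice received B16-F0-Luc melanoma cells in the dermis of the back on day 1. Imiquimod, which activates Toll-like receptor 7, was put on the back of all mice as 30 mg of cream each day from day 15 until day 21, and skin was taken on day 25. The genotypes compared were K14CreCampf/f, in which a keratin 14 promoter drives Cre in keratinocytes and not in the tumour cells or leukocytes, and Campf/f, which carries the floxed Camp alleles alone and which the series text calls wild type. The titles and genotype labels assign K14CreCampf/f to the libraries in the WT columns and Campf/f to those in the cKO columns, opposite to the column names. For this reason libraries carry the names of their columns, and the genotype behind a difference cannot be stated. The age of the mice is not given in the sources used here. The other experiment used A375, an established human melanoma cell line, kept with LL-37, the peptide cut from cathelicidin, at 80 µg/mL for 24 h (n = 3) or without it (Ctrl, n = 3).

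Levels are TPM, a transcript abundance corrected for transcript length and for the library total, so that genes can be compared within a library. The tables hold no read depth, so that intervals for counting error are not available. Of the 7 genes, 7 passed the filter of 1 TPM in at least 2 mouse libraries, but Mmp9 passed only through the cKO columns, so that it had to differ to be tested. Library cKO-1 stood apart from the other mouse libraries, with a score of 53.5 on principal component 1, which held 58.55% of variance, against 3.66 in cKO-2, -20.4 in WT-1 and -36.8 in WT-2. Of the 14537 genes tested, 4.24% were at least 2-fold higher in cKO-1 than in cKO-2 and 0.784% at least 2-fold lower. The mouse identifiers are not paired with names in the sources used here, so that markers of skin, tumour and leukocytes were not analysed and the labelled tissue was not checked against them. In whole skin, a change in the number of cells of a type and a change in RNA per cell cannot be told apart.

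All 7 genes were higher in both cKO columns than in either WT column. Spp1 and Timp1 were about equally high in the 2 cKO libraries, whereas each of the 5 proteases was higher in cKO-1 than in cKO-2. At least 2-fold differences in the group means on the log2(TPM + 1) scale were seen for 5 of 7, which were Spp1, Timp1, Mmp2, Mmp3 and Mmp9. Among all tested genes, 3.49% were at least 2-fold higher in the cKO columns without overlap, and 35.4% were higher without overlap whatever the size. The median log2 difference was 2.34 over the 7 genes and 0.09 over all tested genes. In the limma fit over all tested genes, 0.0619% had an adjusted p under 0.05 in either direction and 0.0206% in the higher direction. Since the 7 genes were chosen from this comparison, no call or p-value is given for them and nothing is read from these counts.

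**Figure D1:**
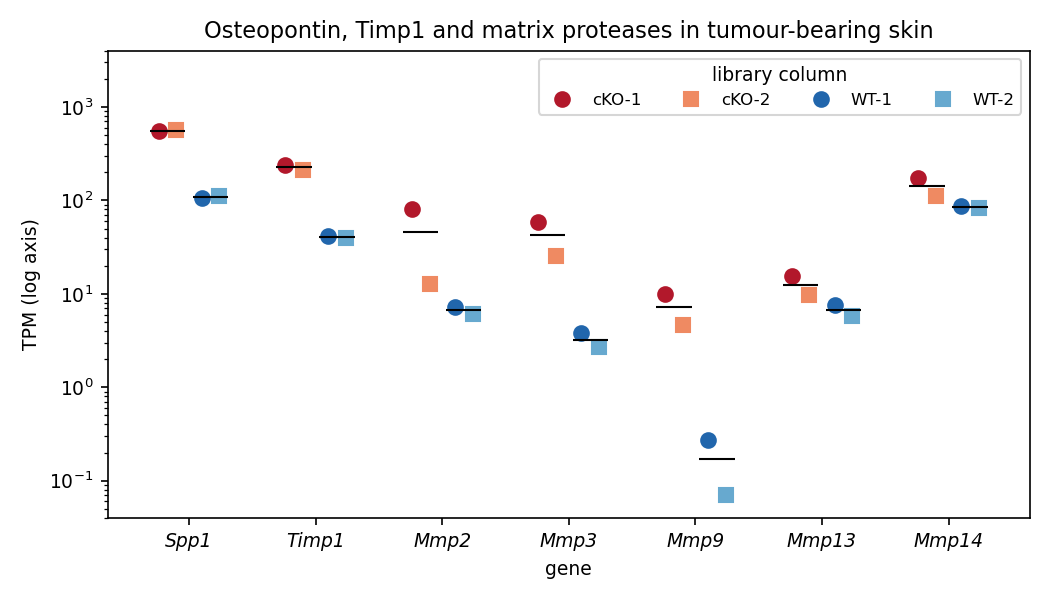
TPM of each gene (log axis) in the libraries of columns cKO-1, cKO-2, WT-1 and WT-2, with a black line at the mean of each pair of columns (n = 2). All 7 genes lie higher in both cKO columns, and the cKO libraries coincide for Spp1 and Timp1 but not for Mmp2.

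Spp1, which encodes osteopontin (ENSMUSG00000029304, 7 listed transcripts), was at 549.15 TPM in cKO-1 and 568.18 TPM in cKO-2, against 107.35 TPM in WT-1 and 111.27 TPM in WT-2. The pair of libraries in each group lay close together, and the gap between groups was far wider than either spread. Spp1 was chosen from this comparison, however, and 15.8% of tested genes had a smaller gap between cKO-1 and cKO-2. The means were 559 ± 13.5 TPM in the cKO columns and 109 ± 2.77 TPM in the WT columns (SD, n = 2 each), a ratio of 5.11. It was the most abundant of the 7 in every library. Among tested genes its level stood at the 98.3 and 98.4 percentile in cKO-1 and cKO-2 and at the 91.4 and 91.9 percentile in WT-1 and WT-2.

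Timp1, the inhibitor (ENSMUSG00000001131, 2 listed transcripts), was at 236.55 TPM in cKO-1 and 214 TPM in cKO-2, against 41.74 TPM in WT-1 and 39.96 TPM in WT-2. The groups did not overlap, and the lower cKO library was 5.13 times the higher WT library. The log2 difference was 2.43 for Timp1 and 2.34 for Spp1, both on the log2(TPM + 1) scale. Over the 4 libraries the patterns of these genes were alike. After each gene was centred on its own mean, the root mean square difference between them was 0.091 on the log2 scale, and 0 of the other 14536 tested genes lay closer to Spp1 than Timp1 did, or closer to Timp1 than Spp1 did. This likeness rests on 4 libraries of 2 groups that share the contrast from which both genes were chosen. The measure keeps the size of a gene's difference, and 99.4% of tested genes had a smaller one than Spp1. Few genes could thus lie close to either, and nothing is read from the count of 0. The TPM ratio of Spp1 to Timp1 was 2.32 in cKO-1 and 2.66 in cKO-2, against 2.57 in WT-1 and 2.78 in WT-2, so that it overlapped between the groups.

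The gelatinases Mmp2 and Mmp9 cleave denatured collagen and the type IV collagen of basement membranes. Mmp2 (ENSMUSG00000031740), a product mainly of stromal cells, was at 80.09 TPM in cKO-1 and 12.73 TPM in cKO-2, against 7.26 TPM in WT-1 and 6.15 TPM in WT-2. The level in cKO-1 was 6.29 times that in cKO-2, and 98.9% of tested genes had a smaller gap between these 2 libraries. The mean was 46.4 ± 47.6 TPM in the cKO columns and 6.71 ± 0.785 TPM in the WT columns (SD, n = 2 each). The log2 difference was 2.12 with all libraries and 0.84 without cKO-1, below 2-fold.

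Mmp9 (ENSMUSG00000017737), stored in neutrophil granules and also made by macrophages, was the least abundant of the 7 in every library, at 9.88 TPM in cKO-1 and 4.68 TPM in cKO-2, against 0.27 TPM in WT-1 and 0.07 TPM in WT-2. It was below 1 TPM in both WT columns and above it in both cKO columns. Its log2 difference of 2.75 depended on the value added before taking logarithms, and was 4.78 with 0.1 TPM added and 1.22 with 5 TPM. The WT values are near the lowest that the table prints, so the ratio of the means, 42.8, is poorly determined.

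Mmp3 (ENSMUSG00000043613), stromelysin 1, cleaves many matrix proteins and activates the precursors of other metalloproteinases. It was at 59.31 TPM in cKO-1 and 25.42 TPM in cKO-2, against 3.81 TPM in WT-1 and 2.67 TPM in WT-2. The groups did not overlap, with the lower cKO library at 6.67 times the higher WT library. The log2 difference was 3.25 on the log2(TPM + 1) scale. Of tested genes 99.8% had a smaller one, but Mmp3 was chosen from this comparison. Its difference was the largest of the 7 on that scale, whereas with 0.1 TPM added it was 3.56 and that of Mmp9 was 4.78. Without cKO-1 it was 2.65. The pattern of Mmp3 was close to that of Mmp9, with a root mean square difference of 0.268, but 1 tested gene lay closer to Mmp3 and 17 lay closer to Mmp9, whose WT values on the log scale depend on the value added.

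Mmp13 and Mmp14 differed least. Mmp13 (ENSMUSG00000050578), a collagenase of fibrillar collagen, was at 15.43 TPM in cKO-1 and 9.61 TPM in cKO-2, against 7.55 TPM in WT-1 and 5.75 TPM in WT-2. The lower cKO library was only 1.27 times the higher WT library. Mmp14 (ENSMUSG00000000957), a protease anchored in the cell membrane that activates the precursor of Mmp2, was at 175.85 TPM in cKO-1 and 112.09 TPM in cKO-2, against 87.88 TPM in WT-1 and 82.05 TPM in WT-2. Here the lower cKO library was 1.28 times the higher WT library. The log2 differences were 0.80 for Mmp13 and 0.72 for Mmp14 with all libraries, and 0.48 and 0.40 without cKO-1. Mmp13 and Mmp14 were alike in pattern, with a root mean square difference of 0.095, near the 0.091 of Spp1 and Timp1. Here 59 other tested genes lay closer to Mmp13. Differences of this size were more common, with 94.4% of tested genes below Mmp13 and 99.4% below Spp1. The counts of closer genes are therefore not compared between these pairs.

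**Figure D2:**
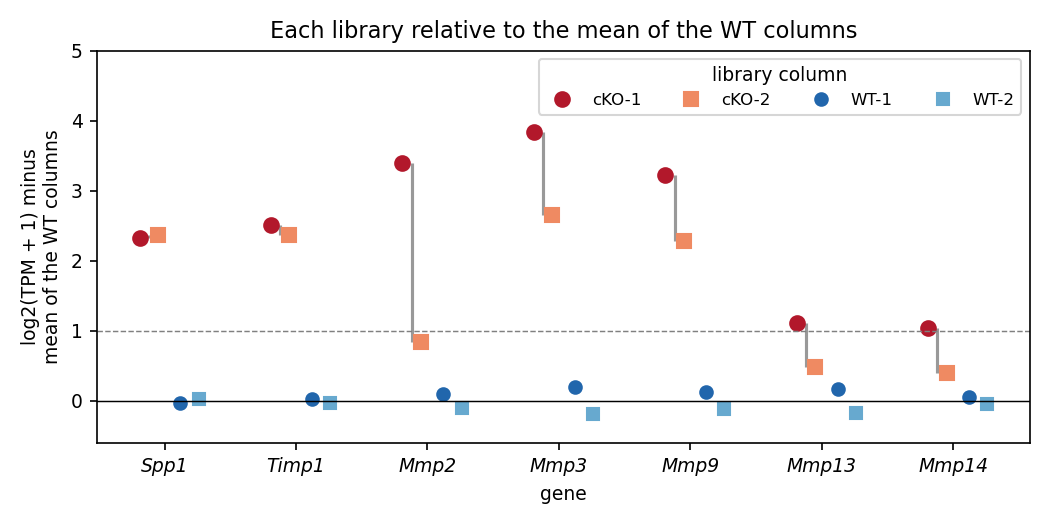
log2(TPM + 1) of each library minus the mean of the WT columns, per gene, with a grey line joining cKO-1 and cKO-2 and a dashed line at a 2-fold difference. The cKO libraries lie together for Spp1 (2.32 in cKO-1 and 2.37 in cKO-2) and apart for Mmp2 (3.40 and 0.84).

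Taken one at a time against the mean of the WT columns, cKO-1 was at least 2-fold higher for 7 of 7 genes, where 6.49% of all tested genes were. For cKO-2 this held for 4 of 7, which were Spp1, Timp1, Mmp3 and Mmp9, where 2.5% of tested genes were. Since the 7 genes were chosen from this comparison, and Mmp9 passed the filter only through the cKO columns, nothing is read from these counts. The ratio of cKO-1 to cKO-2 in TPM was 6.29 for Mmp2, 2.33 for Mmp3, 2.11 for Mmp9, 1.61 for Mmp13 and 1.57 for Mmp14, and 1.11 for Timp1. For Spp1 it was cKO-2 that was higher, by a factor of 1.03. The proteases were thus higher in the library that stood apart over all genes, and the part of that library's general deviation in their values was not tested.

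**Figure D3:**
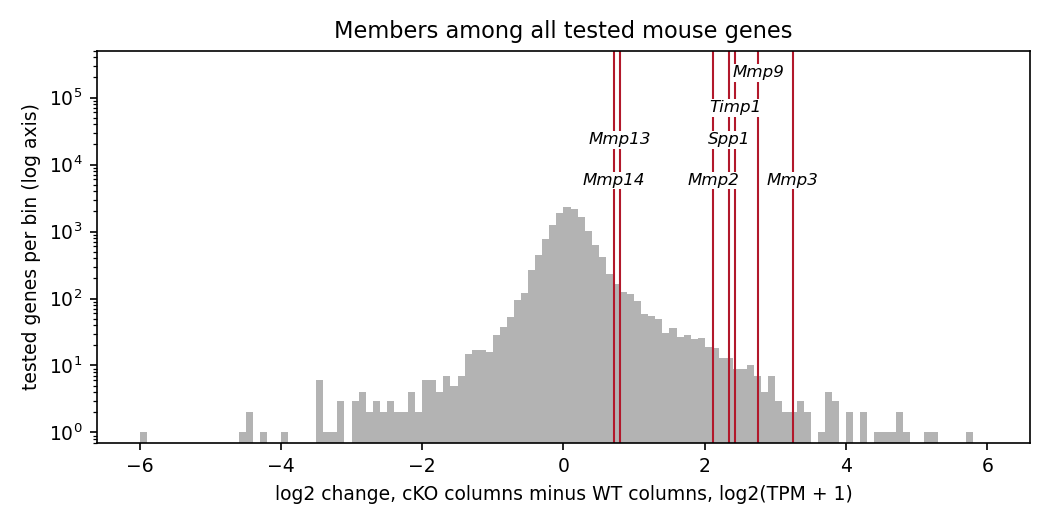
Number of tested mouse genes (log axis) by log2 difference on the log2(TPM + 1) scale, cKO columns minus WT columns, in bins of 0.1, with red lines at the 7 genes. The end bin on the left holds the 1 gene at -5.9 or below. Mmp13 and Mmp14 lie at 0.80 and 0.72 and the other genes at 2.12 to 3.25.

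The order of the levels differed between the groups. In the cKO columns the means, from high to low, were those of Spp1, Timp1 (225 ± 15.9 TPM), Mmp14 (144 ± 45.1 TPM), Mmp2, Mmp3 (42.4 ± 24.0 TPM), Mmp13 (12.5 ± 4.12 TPM) and Mmp9 (7.28 ± 3.68 TPM). Mmp2 was above Mmp3 in cKO-1 and below it in cKO-2, so that these neighbours are not ordered. Across the pair of cKO libraries the values of Mmp13 overlapped with those of Mmp2 and of Mmp9, although within each cKO library Mmp13 was below Mmp2 and above Mmp9. In the WT columns Mmp14 (85.0 ± 4.12 TPM) stood above Timp1 (40.9 ± 1.26 TPM), followed by Mmp2, Mmp13 (6.65 ± 1.27 TPM), Mmp3 (3.24 ± 0.806 TPM) and Mmp9 (0.17 ± 0.141 TPM; SD, n = 2 for each mean). There Mmp2 and Mmp13 overlapped. Timp1 was thus more abundant than Mmp14 in both cKO libraries and less abundant in both WT libraries. The Timp1 to Mmp14 ratio was 1.35 in cKO-1 and 1.91 in cKO-2, against 0.475 in WT-1 and 0.487 in WT-2.

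The summed level of the 5 proteases was 341 TPM in cKO-1 and 165 TPM in cKO-2, against 107 TPM in WT-1 and 96.7 TPM in WT-2. Mmp14 made up the greater part of it in every library, at 51.6% in cKO-1 and 68.1% in cKO-2, against 82.3% in WT-1 and 84.9% in WT-2. Mmp3 took 17.4% in cKO-1 and 15.5% in cKO-2, against 3.57% in WT-1 and 2.76% in WT-2. The share of Mmp2 was 23.5% in cKO-1 and 7.74% in cKO-2, against 6.80% in WT-1 and 6.36% in WT-2, so that for Mmp2 the share in cKO-2 was close to those of the WT columns. Mmp13 took 4.53% in cKO-1 and 5.84% in cKO-2, against 7.07% in WT-1 and 5.95% in WT-2. Timp1 was 0.695 times the summed proteases in cKO-1 and 1.30 times in cKO-2, against 0.391 times in WT-1 and 0.413 times in WT-2. These ratios compare transcripts within a library and are unaffected by its scaling. They say nothing of protein, of protease activity or of which of these proteases Timp1 blocks. The other Timp genes were not read in mouse.

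**Figure D4:**
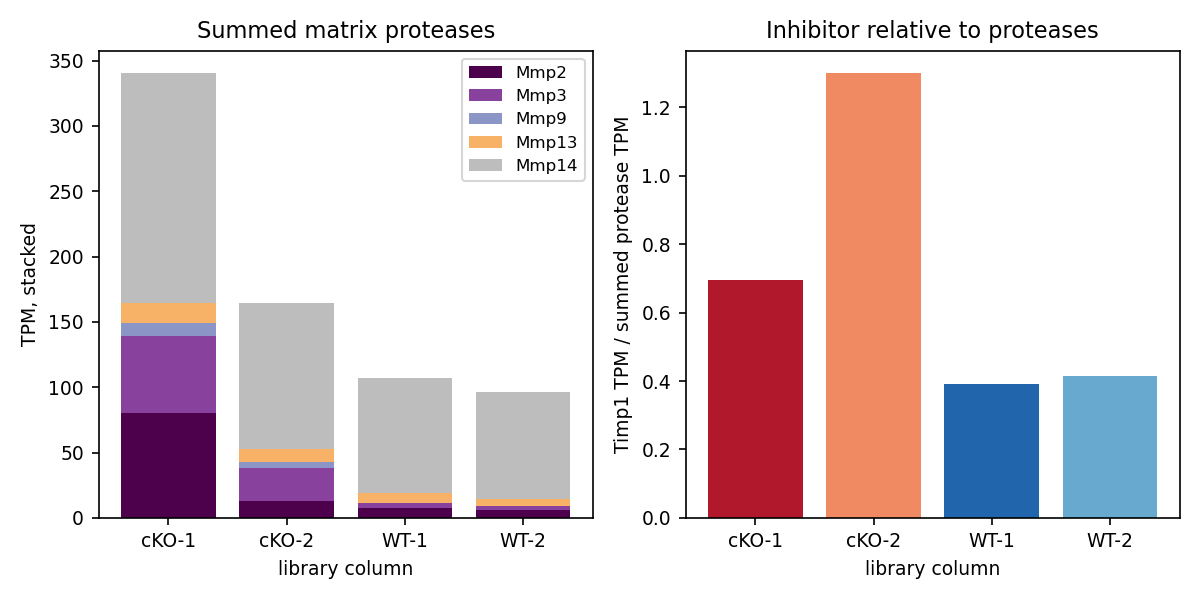
Left, TPM of Mmp2, Mmp3, Mmp9, Mmp13 and Mmp14 stacked for each mouse library. Right, Timp1 TPM divided by the summed TPM of these proteases, which is 0.695 and 1.30 in the cKO columns and 0.391 and 0.413 in the WT columns.

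The A375 libraries, which took no part in the choice of the genes, showed which of the genes of the same names a melanoma line expresses and how they stood after LL-37. Of the 7, 4 were tested (SPP1, TIMP1, MMP2 and MMP14), and MMP3, MMP9 and MMP13 were below 0.1 TPM in every library. None of the 4 passed the threshold (limma over 14399 genes, adjusted p = 0.739 for each), and 0% of all tested genes did, while 363 genes, or 2.52%, had an unadjusted p under 0.05. In TPM all 4 were lower in each LL-37 library than in any Ctrl library, which held for 10.3% of all tested genes. Overlap was not examined after rescaling.

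TIMP1 (chromosome X, 47582436 to 47586789, GRCh38) was at 786.96, 798.82 and 770.97 TPM with LL-37, against 960.42, 996.6 and 975.66 TPM in Ctrl. It was the most abundant of the 4 and varied least between replicates, with means of 786 ± 13.98 TPM with LL-37 and 978 ± 18.2 TPM in Ctrl (SD, n = 3 each). Its log2 difference was -0.32 ± 0.08 (SE). The median over all tested genes was -0.20, and TIMP1 lay 0.11 below it. With median-of-ratios scaling, which moved the median of all genes to 0.01, its difference was -0.06.

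SPP1 (chromosome 4, 87975714 to 87983411) was at 93.2, 97.21 and 120.69 TPM with LL-37, against 131.7, 145.66 and 140.61 TPM in Ctrl. The LL-37 libraries were lower in TPM without overlap. By percentile among tested genes, however, SPP1 in LL-37-3 (94.3) lay within the Ctrl libraries (93.9 to 94.5). Its percentile was 90.9 in LL-37-1 and 91.4 in LL-37-2. The log2 difference was -0.43 ± 0.13 (SE), which lay 0.23 below the median of all genes, and -0.18 with median-of-ratios scaling. Without LL-37 replicate 3, which stood apart from the other A375 libraries with a score of 83.5 on principal component 1 against -22.4 to -7.77, SPP1 was lower by -0.54 and passed the threshold (limma, adjusted p = 0.0378, range over alternatives 0.0378 to 0.921), as did 0.118% of all tested genes.

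MMP2 (chromosome 16, 55478830 to 55506691) was at 71.67, 73.02 and 28.52 TPM with LL-37, against 81.23, 88.87 and 102.15 TPM in Ctrl. MMP14 (chromosome 14, 22836585 to 22847758) was at 43.72, 46.51 and 16.53 TPM with LL-37, against 49.23, 49.57 and 54.25 TPM in Ctrl. For both, LL-37 replicate 3 was far below the other LL-37 libraries. The log2 differences were -0.75 ± 0.36 (SE) for MMP2 and -0.64 ± 0.38 (SE) for MMP14 with all libraries, and -0.32 and -0.17 without that library.

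**Figure D5:**
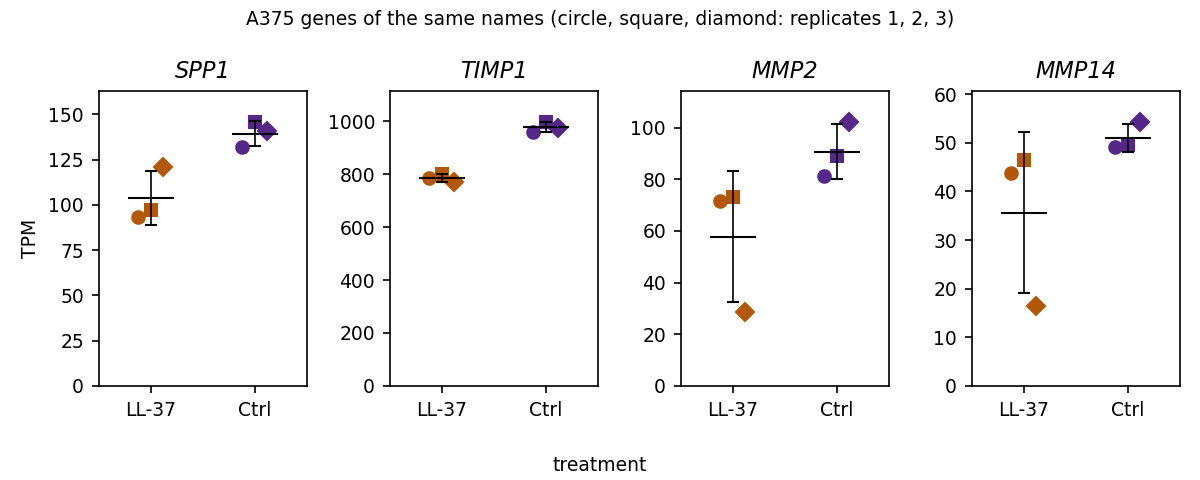
TPM of SPP1, TIMP1, MMP2 and MMP14 in A375 cells with LL-37 and in Ctrl, with symbols for replicates 1 to 3 and bars for mean ± SD (n = 3 each). Replicate 3 with LL-37 is the low point for MMP2 (28.52 TPM) and MMP14 (16.53 TPM).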

How the data were processed

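For each species the authors deposited TPM in a single table with a row per gene. Per the labels' protocols, a column kit was used for extraction and the libraries were stranded and poly(A) selected. That protocol names keratinocytes as the source for every sample, unlike the sample labels. The submitters' processing notes name GRCh38 and GRCm39. No aligner or quantifier is given in the sources used here. TPM keep no depth. The genes and lists were chosen with earlier results of these data known. All tests used log2(TPM + 1). A gene was tested if at least 2 mouse or 3 A375 libraries reached 1 TPM. The test was that of limma 3.58.1 under R 4.3.3 (intensity trend, two-sided, Benjamini-Hochberg adjusted p under 0.05), and the code was tested on simulated data. With 2 libraries against 2, an exact permutation test cannot go below p = 0.333. A name table matched 62541 of 63140 human identifiers, and coordinates came from RefSeq. No mouse identifier matched, so the mouse gene lists, the marker lists and the naming of genes of like pattern were not run. The 10 pathway lists were applied to A375 under the human symbols instead, a choice made after the data were seen. Named were the 7 genes, every listed gene past the threshold (none with all libraries) and the 2 most abundant of each list. A2M and FN1, which passed the threshold only without LL-37 replicate 3, were also named. The alternatives changed the pseudocount (0.1 or 5), the filter (none or 5 TPM), the scaling (median of ratios or quantiles) or the intensity trend, added a replicate block, or left out each library in turn with the tested genes kept.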

Additional observations from a re-analysis of the deposited data

How the results depend on the processing

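The count of 9 mouse genes past the threshold became 3 with a pseudocount of 0.1, 0 with a pseudocount of 5, 0 with no filter, 3 with a filter of 5 TPM and 17 with no intensity trend, and, leaving out single libraries, lay between 0 and 55 (0 without cKO-1, 55 without cKO-2, 0 without either WT library). Where limma gave 0 mouse genes, 778 to 2869 had an unadjusted p under 0.05. The cause was not tested. The count of 5 genes at least 2-fold higher was 4 without cKO-1, 7 without cKO-2, 4 with a filter of 5 TPM, which removed Mmp9, and 5 under the other alternatives run. All 83 alternative values of the 7 genes kept their direction. Since the groups do not overlap for these genes, only the changes of scaling could have reversed it. Of the 83 values, 7 moved by at least the pooled SD of the gene. Quantile normalization moved the median of all mouse genes from 0.09 to -0.04. The count of 0 A375 genes lay between 0 and 17 over the libraries left out, with 17 without LL-37 replicate 3. All 56 alternative values of the 4 A375 genes kept their direction, which here too only the changes of scaling could have reversed. The replicate block gave 6 mouse genes, median-of-ratios scaling 12 and quantile normalization 13, each with 0 A375 genes. Nothing in the labels ties same-numbered libraries, whose deviations correlated at 0.22 in mouse and -0.20 to 0.09 in A375. Of the A375 samples, 1 of 6 was closest to its own number. In mouse 4 of 4 were, but with 2 libraries per group this count follows from the sign of the correlation. Nothing is read from it. Without a library, the lone library of a mouse group is assumed to vary like the other group. TPM give no depth, so that no limit of detection can be set for Mmp9 in the WT columns.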

Other observations

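The pathway lists around these genes were read in A375 cells only. Of 128 listed genes, 88 were tested, none passed the threshold with LL-37 (limma), 10 had an unadjusted p under 0.05, against 363 of all 14399 tested genes, and 2 passed without LL-37 replicate 3, against 17 of all tested genes. These were A2M, a broad protease inhibitor, and FN1, fibronectin, both lower. A2M was at 15.7 ± 6.64 TPM with LL-37 and 46.2 ± 4.53 TPM in Ctrl (SD, n = 3 each). FN1 was at 16.1 ± 7.50 TPM with LL-37 and 39.5 ± 3.80 TPM in Ctrl. The LL-37 means of A2M and FN1 include replicate 3. Dropping this replicate moved the log2 difference of A2M from -1.60 to -1.21 (limma, adjusted p = 0.00651). For FN1 the difference moved from -1.36 to -0.91, which is below 2-fold (limma, adjusted p = 0.0136).

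Among the other metalloproteinases 8 of 17 were tested, with a median log2 difference of -0.27, against -0.20 for all genes, and of -0.16 without LL-37 replicate 3, against -0.0039 for all genes. The most abundant were MMP1, a collagenase, at 25.4 ± 7.22 TPM with LL-37 and 33.0 ± 3.22 TPM in Ctrl, and MMP16, which is membrane-anchored, at 20.1 ± 10.8 TPM with LL-37 and 29.1 ± 2.95 TPM in Ctrl. Of the inhibitors and cofactors 8 of 10 were tested (median -0.34, and 0.05 without LL-37 replicate 3), led by BSG, an inducer of metalloproteinases, at 434 ± 45.3 TPM with LL-37 and 495 ± 40.2 TPM in Ctrl, and TIMP3 at 184 ± 78.1 TPM with LL-37 and 223 ± 17.1 TPM in Ctrl. Of the osteopontin receptors 8 of 10 were tested (median -0.45, and -0.08 without LL-37 replicate 3), led by CD44 at 346 ± 104.9 TPM with LL-37 and 432 ± 23.4 TPM in Ctrl, and the integrin gene ITGB1 at 121 ± 30.4 TPM with LL-37 and 155 ± 8.15 TPM in Ctrl. The 4 relatives of osteopontin in the bone sialoprotein family were listed at 0 in every A375 library.

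Of the plasminogen system 7 of 10 were tested (median -0.11, and -0.05 without LL-37 replicate 3), led by SERPINE2 at 3580.5 ± 1034 TPM with LL-37 and 4622 ± 204.1 TPM in Ctrl, and S100A10 at 724 ± 10.4 TPM with LL-37 and 769 ± 40.6 TPM in Ctrl. Of the ADAM and ADAMTS proteases 11 of 15 were tested (median -0.37, and -0.07 without LL-37 replicate 3), led by ADAM15 at 90.7 ± 28.9 TPM with LL-37 and 113 ± 9.99 TPM in Ctrl, and ADAM10 at 53.8 ± 25.9 TPM with LL-37 and 76.0 ± 5.55 TPM in Ctrl. Of the cathepsins and their inhibitor CST3 10 of 10 were tested (median -0.14, and -0.13 without LL-37 replicate 3), led by CTSC at 356 ± 21.4 TPM with LL-37 and 344 ± 15.3 TPM in Ctrl, and CTSZ at 239 ± 80.3 TPM with LL-37 and 358 ± 16.3 TPM in Ctrl. Of the matrix substrates 13 of 20 were tested (median -0.51, and -0.01 without LL-37 replicate 3), led by TNC at 186 ± 100.7 TPM with LL-37 and 238 ± 13.3 TPM in Ctrl, and LAMA5 at 141 ± 70.4 TPM with LL-37 and 173 ± 6.44 TPM in Ctrl. Of the inducing cytokines 8 of 16 were tested (median 0.04, and 0.20 without LL-37 replicate 3), led by TGFB1 at 49.7 ± 18.0 TPM with LL-37 and 63.6 ± 4.49 TPM in Ctrl, and IL1A at 29.98 ± 1.48 TPM with LL-37 and 20.9 ± 0.81 TPM in Ctrl. Of the transcription factors of the AP-1, ETS, RUNX and STAT3 list 15 of 16 were tested (median -0.25, and 0.06 without LL-37 replicate 3), led by ETV4 at 98.0 ± 29.6 TPM with LL-37 and 95.1 ± 3.99 TPM in Ctrl, and FOSL1 at 95.4 ± 36.0 TPM with LL-37 and 85.2 ± 4.83 TPM in Ctrl. Members were not adjusted over each list alone, and no list was tested as a set.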
